A study of Homo sapiens with 18 samples.

Results

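Mitochondrial ribosomal proteins were taken as the protein-coding genes whose symbol is MRPL (large subunit) or MRPS (small subunit) followed by a number and at most one of the letters A, B or C. The rule found 78 genes, 49 of the large and 29 of the small subunit, among the 61487 genes counted in every library, of which 19328 are protein-coding. The cells were NCI-H1975, a human lung adenocarcinoma line, and the peptide studied was DAMP, which is encoded by DSP-AS1, a transcript annotated as a long non-coding RNA. Cells labelled Scramble, cells labelled sgControl and cells labelled sgDAMP (DAMP knockout) were each sequenced as poly(A)-selected mRNA and as ribosome footprints, the short RNA fragments that ribosomes protect from nuclease, with 3 libraries for each of the 6 groups. Cells for footprints were harvested after cycloheximide, which stops elongating cytosolic ribosomes. The deposited count tables of the cells labelled sgDAMP carry another name for the guide target (sgTIAMP), and groups were taken from the labels. The labels give neither the guide sequences nor whether a line is 1 clone, and they do not say whether replicates came from separate cultures, so p-values measure the spread between these libraries, which may be technical.

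Mitochondria carry ribosomes of their own, which make the respiratory chain subunits that the mitochondrial genome encodes. All of their proteins are encoded in the nucleus, made on cytosolic ribosomes and imported, so the footprints described here report how cytosolic ribosomes occupied the mRNAs of mitochondrial ribosomal proteins, not the activity of the mitochondrial ribosome. Part of the set descends from bacterial ribosomal proteins and part is found only in mitochondria. Current structures place MRPS30 and MRPS18A in the large subunit, and RefSeq lists MRPS36 as KGD4, a subunit of the oxoglutarate dehydrogenase complex. The rule kept all 3 by symbol.

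The upstream sequence of these genes is shown first because it is a feature that the choice by symbol did not use. RefSeq promoter windows (GRCh38.p14, 250 bases before to 50 after the annotated start, 1 window per gene) matched 70 of the 78 members, 37 on the plus and 33 on the minus strand. CCGGAAG, the core bound by ETS family factors, was found on either strand in 29 of the 70 windows (41.4%), against 14.4% of the 15313 windows of protein-coding genes counted here. The YY1 motif, searched as AAGATGG followed directly by CGGC, can share its first 3 bases with the end of CCGGAAG. It was in 10 windows (14.3%), against 1.4%, and in 9 of them it reached or lay past the start. The NRF1 motif, searched as GCGCA, any base and GCGC, was in 8 windows (11.4%), against 8.59%. TATAAA was in 3 windows (4.3%), against 9.62%. A match is a description of letters and not of binding. The windows printed next were picked from those with at least 2 matches to the ETS core or the NRF1 motif before the start. The 250 upstream bases of 4 members that appear in the results below are printed 5′ to 3′ on the gene's own strand, with matches to the ETS core or the NRF1 motif on either strand in capitals: MRPL27 (chr17:50373185-50373434, minus strand), MRPL30 (chr2:99180934-99181183, plus strand), MRPL51 (chr12:6493263-6493512, minus strand) and MRPS34 (chr16:1773135-1773384, minus strand).
MRPL27: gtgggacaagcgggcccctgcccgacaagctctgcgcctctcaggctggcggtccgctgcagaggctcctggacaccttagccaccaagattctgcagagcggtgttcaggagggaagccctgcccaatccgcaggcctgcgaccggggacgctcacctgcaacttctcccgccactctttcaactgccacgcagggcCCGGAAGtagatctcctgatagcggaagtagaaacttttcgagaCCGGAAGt
MRPL30: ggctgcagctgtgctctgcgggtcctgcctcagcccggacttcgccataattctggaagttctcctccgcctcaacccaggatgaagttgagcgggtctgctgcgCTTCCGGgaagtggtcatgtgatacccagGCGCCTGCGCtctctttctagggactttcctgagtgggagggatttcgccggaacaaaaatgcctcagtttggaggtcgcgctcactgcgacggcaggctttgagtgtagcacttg
MRPL51: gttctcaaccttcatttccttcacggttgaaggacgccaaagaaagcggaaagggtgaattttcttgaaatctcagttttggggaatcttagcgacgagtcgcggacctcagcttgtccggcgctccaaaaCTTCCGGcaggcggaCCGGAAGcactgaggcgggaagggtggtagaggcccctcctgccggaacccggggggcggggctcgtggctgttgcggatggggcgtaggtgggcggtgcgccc
MRPS34: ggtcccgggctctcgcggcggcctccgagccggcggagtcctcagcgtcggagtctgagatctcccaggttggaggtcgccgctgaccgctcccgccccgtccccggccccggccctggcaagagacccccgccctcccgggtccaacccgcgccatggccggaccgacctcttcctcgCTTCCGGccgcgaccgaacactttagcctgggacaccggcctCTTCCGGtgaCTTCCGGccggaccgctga

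MRPL27 and MRPL51 hold 2 matches to CCGGAAG each and MRPS34 holds 3, while MRPL30 is the one of the 4 with both an ETS core and an NRF1 match. Several matches per window follow from how the 4 were picked and are not typical, since most of the 70 windows hold no CCGGAAG. Set against the mRNA change described below, the 28 tested members with CCGGAAG had a median log2 change between sgControl and sgDAMP mRNA of 0.18, and the 41 without it had 0.17.

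A library held 10859527 to 12424884 gene counts for Scramble mRNA and 17098397 to 17464782 for sgControl or sgDAMP mRNA. For footprints it held 1035159 to 1302852 in Scramble cells and 6207783 to 7840852 in the rest. Members took 50979 to 164473 counts of an mRNA library, 35227 to 40890 of an sgControl or sgDAMP footprint library and only 547 to 1721 of a Scramble footprint library, where the median member had 4 to 16 counts. MRPL53 was at 0 in every library. Of the 7 epithelial markers, KRT7, KRT8, KRT18, CDH1 and CLDN4 were at 14.1 CPM (gene counts scaled to a common library total) or more in every mRNA library, whereas EPCAM and KRT19 stayed at or under 1.21 CPM, and the 6 lung lineage markers summed to at most 1.61 CPM. The targeted transcript, DSP-AS1, whose gene is on the minus strand, followed the labels in footprints. It had 175, 176 and 216 footprints in sgControl and 0, 1 and 1 in sgDAMP. Its mRNA had 299, 328 and 309 counts in sgControl and 319, 324 and 336 in sgDAMP.

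The footprint libraries had 2 properties that bear on every footprint value below. First, the 3 sgControl footprint libraries differed from each other by no more than sampling noise for most genes, and so did the 3 sgDAMP footprint libraries. In sgControl the chi-square per degree of freedom averaged 0.909 over the lowest 99% of 12195 genes with at least 30 summed counts. Over 75 members, with none left out, it averaged 0.84 and was at most 5.15. The sgDAMP averages were 0.91 and 0.89, and the highest member value there was 4.175. The 3 libraries of each condition were therefore summed and counted as 1 sample. The sgDAMP mRNA libraries differed far more, by 64.7 per degree of freedom over all genes and 189 over the members. Second, the footprint counts were split unequally between the strands of the genome. Genes on the plus strand took 50.9% to 52.2% of the protein-coding counts in every mRNA library and 40.5% to 41.1% in Scramble footprints, but 89.3% to 90.01% in the footprints of sgControl and 90.8% to 91.0% in those of sgDAMP. The members followed, with 92.2% to 92.7% of sgControl member footprints and 90.6% to 90.8% of sgDAMP member footprints on the 37 plus-strand members. The cause was not tested. Footprint counts of the members are therefore given by strand as well as over all members, and 8 members that the strand table does not list (MRPL2, MRPL10, MRPL13, MRPL15, MRPL21, MRPL23, MRPL35 and MRPS28) are given as such.

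**Figure D1:**
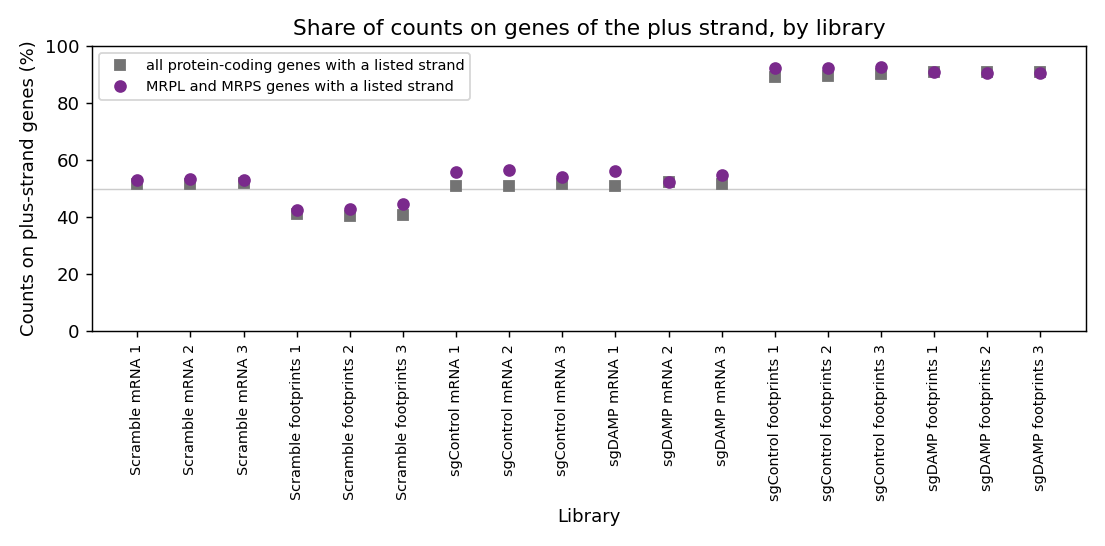
Percent of counts that fell on genes of the plus strand (vertical axis) in each of the 18 libraries (horizontal axis), for all protein-coding genes with a listed strand (squares) and for the MRPL and MRPS genes with a listed strand (circles). The mRNA libraries sit near 50%, Scramble footprints near 41%, and all 6 sgControl and sgDAMP footprint libraries near 90%.

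In mRNA, no mitochondrial ribosomal protein passed the test for a change between sgControl and sgDAMP cells. Of 77 members tested, 0 passed an adjusted p of 0.05 (edgeR quasi-likelihood test, Benjamini-Hochberg over 14032 genes), against 0% of all genes tested, and 0 members had an unadjusted p under 0.05, against 5.28% of genes. The count at an unadjusted p under 0.05 depended on the libraries: it was 13 members without the third sgControl library, where 15% of genes passed, and 7 without the first sgDAMP library, where 7.64% did. DESeq2 also called 0 members. The median log2 change of the members was 0.19, with 0.22 over 48 large subunit genes and 0.13 over 29 small subunit genes, beside 0.03 over all genes. In bulk libraries, fewer cells with an mRNA and less mRNA per cell cannot be told apart.

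Single members were spread widely within each group. MRPL50, a large subunit protein found only in mitochondria, had the highest fitted change, with 6.91, 12.1 and 26.6 CPM in sgControl and 16.3, 43.2 and 26.2 CPM in sgDAMP. The 2 groups overlap, since the highest control lies above 2 of the knockout libraries, and the log2 change was 0.83 ± 0.45 (SE, edgeR adjusted p = 0.862). MRPL15 had 25.3, 43.9 and 68.3 CPM in sgControl and 41.6, 130.6 and 58.3 CPM in sgDAMP. Only the second sgDAMP library exceeded the controls, and the log2 change was 0.65 ± 0.42 (SE, edgeR adjusted p = 0.862). MRPL2, a core protein of the peptidyl transferase region, stayed at or under 2.03 CPM in these libraries (0.69), and MRPL46 had a log2 change of 0.60.

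At the other end, MRPL38 had 2.25, 2.28 and 1.09 CPM in sgControl and 1.57, 1.20 and 0.637 CPM in sgDAMP. Its log2 change was -0.89 ± 0.48 (SE, edgeR adjusted p = 0.862) and its groups overlap. MRPS2, a small subunit protein with a bacterial homologue, had 114.0, 100.7 and 73.6 CPM in sgControl and 99.5, 59.3 and 79.2 CPM in sgDAMP, a log2 change of -0.44. MRPS24 (-0.75) shares its span with the read-through gene URGCP-MRPS24, so its counts, 1.16 to 3.80 CPM, are uncertain. MRPL49 had a log2 change of -0.23 with an SE of 0.25. After scaling, 1 of the 77 members did not overlap between groups on the higher side and 0 on the lower, against 5.91% and 5.54% of all genes. It was MRPS17, with 3.80, 3.57 and 4.47 CPM before scaling in sgControl and 5.24, 6.53 and 4.28 CPM in sgDAMP.

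What the members shared was a library pattern. Their summed mRNA level was 5953, 6120 and 7494 CPM in sgControl and 5705, 9422 and 7603 CPM in sgDAMP, so that 1 sgDAMP library was the lowest and another the highest of the 6. After TMM scaling, the second sgDAMP library was the highest for 56 of 77 members (72.7%), against 29.3% of 12202 protein-coding genes, and the first sgDAMP library was the lowest for 46 members (59.7%), against 14.4%. Without the first sgDAMP library, 22 members were higher without overlap (13.6% of all genes were), and the member median exceeded that of all genes by 0.42 on the log2 scale. Without the second, 2 were higher and 4 lower (9.25% and 8.74% of all genes), and the median lay 0.06 below that of all genes. With all 6 libraries the excess was 0.16. Other gene groups moved with these libraries. Cytosolic ribosomal proteins summed to 100660 CPM in the first and 198440 CPM in the second sgDAMP library, against 118230 to 160940 CPM in sgControl. Nuclear-encoded respiratory chain genes summed to 13099 and 21695 CPM in the same libraries, against 14695 to 18007 CPM. The 7 epithelial markers summed to 19608 and 13791 CPM, against 18905 to 24934 CPM in sgControl. KRT7, KRT8 and KRT18 made up nearly all of that sum, while CDH1 was at 57.0 and 33.5 CPM, above the 26.2 to 29.1 CPM of sgControl. None of the 5 leukocyte markers passed the filter and their sum stayed at or under 0.175 CPM in these 6 libraries, while the 7 fibroblast and endothelial markers, 3 of which passed, summed to 6.07 to 10.5 CPM in sgControl and 6.70 to 12.2 CPM in sgDAMP. The part of these groups in the member pattern was not tested.

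**Figure D2:**
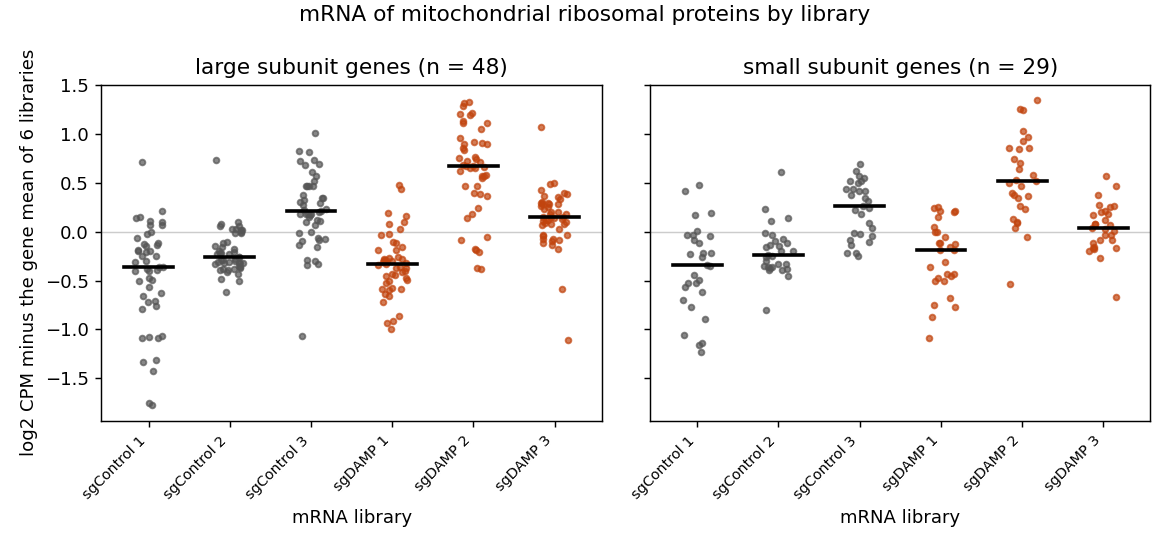
The log2 CPM of each member minus its mean over the 6 mRNA libraries (vertical axis), by library (horizontal axis), for 48 large subunit genes (left) and 29 small subunit genes (right); each point is a gene and the bar is the median, with sgControl in grey and sgDAMP in orange. The second sgDAMP library lies highest, with a median of 0.65 over the 77 genes, and the first sgDAMP library (-0.31) lies among the lowest.

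In footprints, plus-strand members stayed near the control level in sgDAMP cells and minus-strand members lay somewhat above it. With 1 summed sample per condition there is no test. A member was counted as higher or lower where the ratio of its scaled footprints was at least 1.5 in either direction and its exact 95% Clopper-Pearson counting interval excluded 1 (this interval covers counting error only). Of 77 members with at least 10 footprints, 7 were higher and 1 was lower, against 15.3% and 12.6% of 17528 genes. Scaling by total counts gave 14 higher and 0 lower, beside 4073 and 1402 of the 17528 genes. In edgeR on the 6 libraries as if they were replicates, 22 members were higher and 16 lower, beside 3459 and 3498 of all genes. In that fit 46 members had an unadjusted p under 0.05, against 60.1% of genes. None of the 37 plus-strand members was called (8.59% of plus-strand coding genes were higher and 10.4% lower), and their median log2 ratio was -0.06, the same as for plus-strand coding genes. Of 32 minus-strand members, 6 were higher and 1 was lower, against 22.5% and 8.26% of minus-strand coding genes, and their median was 0.23, beside 0.20. When only minus-strand genes set the scaling, 2 members were higher and 2 lower, beside 744 and 630 minus-strand genes of any type. The median member then lay 0.03 from the median gene.

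Among large subunit genes, MRPL10, whose bacterial homologue anchors the stalk that recruits translation factors, had 39, 53 and 44 footprints in sgControl and 107, 87 and 89 in sgDAMP. The ratio was 2.01 (counting interval 1.63 to 2.48). Since the libraries of a condition count as 1 sample, the gap between these library values is no replicate support, here or for the genes that follow. Its mRNA overlapped between groups, with 169.1, 164.0 and 128.3 CPM in sgControl and 213.7, 120.8 and 165.8 CPM in sgDAMP. MRPL27, the counterpart of a bacterial protein near the peptidyl transferase centre, had 77, 92 and 99 footprints in sgControl and 161, 182 and 178 in sgDAMP. The ratio was 1.87 (1.61 to 2.18). MRPL39 had 192 summed footprints in sgControl and 350 in sgDAMP, a ratio of 1.76 (1.47 to 2.11). MRPL28 had 333 and 564, a ratio of 1.63 (1.42 to 1.88). MRPL38 was the 1 lower member, with 13, 20 and 8 footprints in sgControl and 9, 7 and 7 in sgDAMP. The ranges overlap and the ratio was 0.541 (0.31 to 0.923), a log2 ratio of -0.89. The call was lost without the second sgControl (-0.55), the second sgDAMP (-0.80) or the third sgDAMP library (-0.80). MRPL46 (0.68) and MRPL34 (0.675), a plus-strand gene with 346, 365 and 358 footprints in sgControl and 234, 268 and 246 in sgDAMP, lay just inside the threshold of 1.5, and each was called lower under 6 of 14 alternatives, including 3 that left out a library for MRPL34 and 4 for MRPL46.

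Among small subunit genes, MRPS10 had 36, 38 and 32 footprints in sgControl and 57, 61 and 66 in sgDAMP, a ratio of 1.67 (counting interval 1.31 to 2.15). Its pseudogene MRPS10P1 took more footprints than MRPS10 itself, 257 in sgControl and 297 in sgDAMP against 106 and 184. How reads were shared between them is not known, so the call of MRPS10 is uncertain. MRPS34, which is found only in mitochondria, had 42, 49 and 30 in sgControl and 57, 71 and 68 in sgDAMP, a ratio of 1.56 (1.24 to 1.98). MRPS18A, one of 3 human relatives of a single bacterial small subunit protein, had 60 and 99 summed footprints, a ratio of 1.59 (1.14 to 2.23). The calls of MRPS34 and MRPS18A each rest on single libraries: without the third sgControl library the log2 ratio of MRPS34 was 0.43, and that of MRPS18A was 0.43 without the second sgControl library and 0.58 without the first sgDAMP library, all uncalled. Its relatives MRPS18B and MRPS18C, both on the plus strand, had ratios of 0.952 (0.909 to 0.998) and 1.02 (0.944 to 1.1). MRPS18A and MRPS34 overlap the spans of RSPH9 and EME2, and whether reads were counted by strand is not given in the sources used here, so their counts are uncertain. MRPS17 had 16 footprints in sgControl and 8 in sgDAMP, too few to place its ratio of 0.482 (0.179 to 1.19). Of the 3 most deeply covered small subunit genes, all on the plus strand and uncalled, MRPS7 had 6362 and 7155 summed footprints (1.08, 1.05 to 1.12) and MRPS35 had 6087 and 6723 (1.06, 1.03 to 1.1). MRPS12, a protein of the decoding region, had 5677 and 4555, a ratio of 0.774 (0.744 to 0.805).

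**Figure D3:**
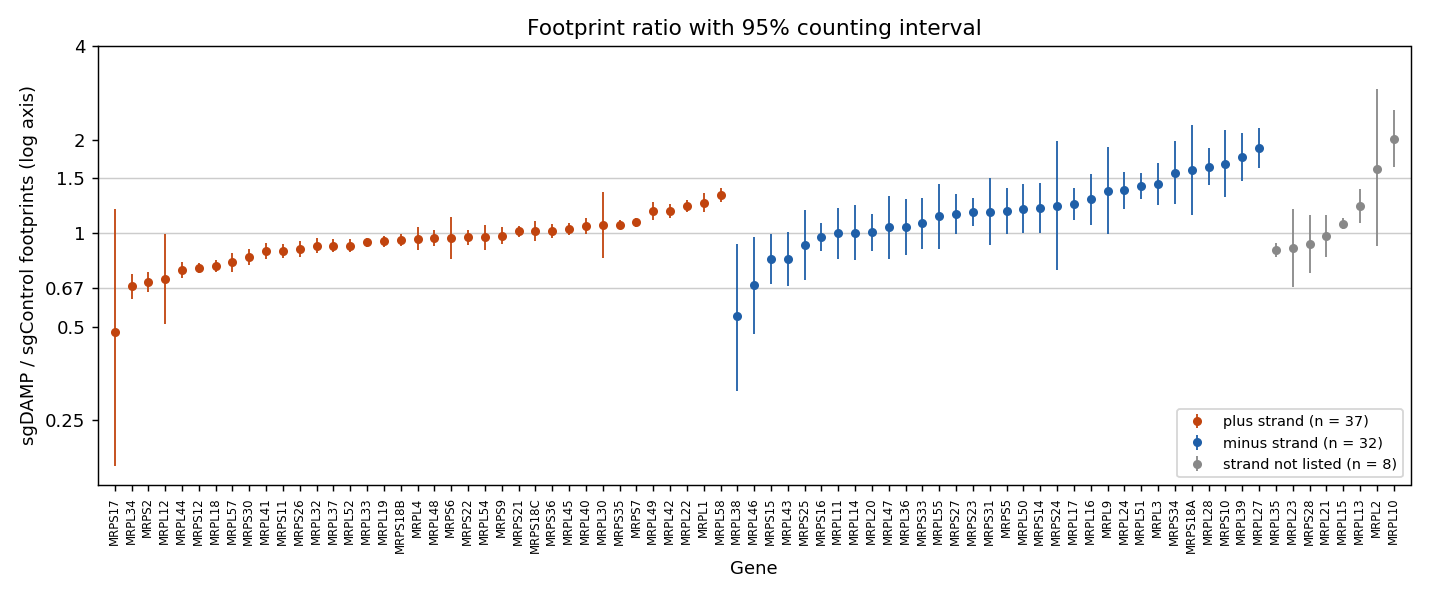
Ratio of sgDAMP to sgControl footprints after scaling (vertical log axis) for each of 77 genes (horizontal axis), ordered by ratio within plus-strand genes (orange), minus-strand genes (blue) and genes with no listed strand (grey); bars are 95% counting intervals and grey lines mark ratios of 0.67, 1 and 1.5. All 37 plus-strand genes are uncalled, and the 7 higher genes are 6 of the minus strand and MRPL10.

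Relative to mRNA, no member passed the test for a change in footprints between the conditions. In the interaction of assay and condition (3 mRNA libraries and 1 summed footprint sample per condition, with the summed sample assumed to vary like the mRNA libraries), 0 of 77 members passed an adjusted p of 0.05, against 0.258% of 19357 genes, and 0 had an unadjusted p under 0.05, against 5.47%. With the footprint libraries taken as replicates, 6 members had an unadjusted p under 0.05, against 17.7% of genes, and 5 with a replicate block, against 16.7%. The median member lay at -0.18, with -0.25 on the plus strand and 0.13 on the minus strand. Without the second sgDAMP mRNA library the member median went from 0.18 below to 0.05 above that of all genes. Standard errors ran from 0.56 to 1.11 on the log2 scale, so changes of that size were not detectable. MRPL10 had the highest value, 1.07 ± 0.63 (SE), followed by MRPS24 (1.06), MRPL28 (0.92) and MRPS18A (0.72). MRPS17 (-1.32), MRPL46 (-1.13), MRPL34 (-0.80) and MRPL44 (-0.75) had the lowest. This comparison uses the same libraries as those in mRNA and in footprints, so its values are not a separate line of evidence.

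In Scramble cells, footprints relative to mRNA were high for the members compared with other genes. Of 74 members tested, 29 were higher in footprints and 8 lower (edgeR quasi-likelihood test), against 17.1% and 27.4% of 14432 genes and 17.6% and 25.4% of 11678 protein-coding genes. The member median was 0.40, beside -0.68 over all genes and -0.44 over coding genes. Scaling by total counts moved the median of all genes by -2.85 and left 1 member higher and 66 lower. Of the 14432 genes, 481 were then higher and 13049 lower, so a direction within a gene holds only relative to other genes. The large subunit had 21 higher and 4 lower of 46, and the small subunit 8 and 4 of 28. By strand, 8 plus-strand members were higher and 5 lower of 37 (13.3% and 31.1% of plus-strand coding genes), and 17 minus-strand members were higher and 2 lower of 30 (21.9% and 19.7%). When only genes with at least 10 counts in every library were kept, 16 members were tested, with 5 higher and 4 lower. Over all genes, 554 were higher and 589 lower in this setting. An unadjusted p under 0.05 (edgeR) was reached by 9 of the 16 members, against 72.9% of genes. The median member then exceeded the median gene by 0.18 in place of 1.08.

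The highest members had small counts in some cases. MRPS28 had 12, 15 and 4 footprints and 38, 64 and 45 mRNA counts, a log2 value of 3.92 ± 0.43 (SE, edgeR adjusted p = 2.78e-08). It shares its span with the read-through gene TPD52-MRPS28. MRPL46 had 6, 7 and 1 footprints, and its log2 value was 3.2. MRPL33 rests on more, with 87, 67 and 64 footprints against 734, 996 and 783 mRNA counts, a log2 value of 2.70 ± 0.20 (SE, edgeR adjusted p = 1.57e-11). MRPL51, the most deeply counted of the 8 highest, had 146, 83 and 52 footprints and 986, 1223 and 1030 mRNA counts, a log2 value of 2.64 ± 0.19. MRPL21 (2.53), MRPL55 (2.46), MRPS14 (2.19) and MRPL16 (1.90) followed. The 6 named genes from MRPL33 to MRPL16 turned to between -0.95 and -0.20 under total-count scaling, while MRPS28 and MRPL46 stayed above 0.

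At the low end, MRPL30 had 308, 275 and 229 mRNA counts and 0 footprints in all 3 libraries. Against a floor of 3 footprints over the group it was at least 3.74-fold lower in footprints. MRPS17 also had 0 footprints, with 77, 98 and 68 mRNA counts, at least 1.12-fold lower, and its test did not pass (edgeR adjusted p = 0.0546). MRPL38, MRPS24 and MRPL53 had 0 footprints too, with 37, 9 and 0 mRNA counts in all. MRPS18A had 0, 4 and 3 footprints (-1.94), MRPL23 0, 3 and 1 (-1.80), MRPL4 4, 7 and 2 (-1.19), MRPL49 4, 11 and 3 (-1.13), MRPS2 10, 6 and 3 (-1.09) and MRPS18B 6, 12 and 2 (-1.08). All 6 passed the test, and each had at least 293 mRNA counts in every library. MRPS34 was the eighth called member, with 14, 16 and 3 footprints against 1274, 1311 and 1493 mRNA counts. Without the first footprint library, MRPS18A (-1.21), MRPL23 (-1.07), MRPL4 (-0.98), MRPL49 (-0.77), MRPS18B (-0.87) and MRPS34 (-0.85) no longer passed. The calls of MRPL23 and MRPS34 were also lost without any one of the mRNA libraries (-1.54 to -1.75 and -0.47 to -0.71), that of MRPL4 without the third mRNA library (-0.96) and that of MRPS34 without the third footprint library (-0.69). MRPL30 was not at 0 in the other cells, where it had 34, 47 and 47 footprints in sgControl and 33, 48 and 60 in sgDAMP.

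In sgControl and sgDAMP cells, the footprint to mRNA ratio of the members followed the strand of the gene. In each of these fits the footprint side is 1 summed sample, assumed to vary like the 3 mRNA libraries, so every p-value here rests on the spread of the mRNA libraries alone. In sgControl, 24 of 77 members were higher in footprints and 31 lower, against 40.3% and 32.1% of 17933 genes. On the plus strand 20 were higher and 4 lower of 37 (56.2% and 14% of coding plus-strand genes), with a median log2 of 1.47, beside 1.55. On the minus strand 1 was higher and 24 lower of 32 (9.58% and 59.3%), with a median of -1.86, beside -2.17. In sgDAMP, 23 were higher and 30 lower (38% and 31.7% of 18238 genes), made up of 19 and 4 on the plus strand (53.7% and 12.7%) and 1 and 23 on the minus strand (6.99% and 58.6%). When only plus-strand genes were fitted, the median member lay 0.07 above the median gene in sgControl and 0.01 below it in sgDAMP.

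Among plus-strand members, MRPL19 had the highest ratio in sgControl, with 230.1, 233.6 and 225.1 CPM in footprints and 5.59, 13.9 and 21.3 CPM in mRNA. The assays do not overlap, and the log2 value was 4.72 ± 0.49 (SE, edgeR adjusted p = 2.76e-07). MRPS18C came next (4.52), ahead of MRPS9 (4.44), a core small subunit protein. MRPS9 had 85.3, 83.7 and 81.3 CPM in footprints and 3.86, 5.38 and 8.53 CPM in mRNA. MRPS35 (3.98) and MRPS22 (3.77), both found only in mitochondria, followed, then MRPL1 (3.13), MRPS36 (2.99) and MRPL44 (2.97). In sgDAMP the 5 highest members were MRPS9 at 4.33, MRPL19 at 4.29, MRPS18C at 4.09, MRPS35 at 3.55 and MRPS22 at 3.10. In Scramble cells MRPS18C was at -1.13, on the other side of 0, with a test that did not pass (edgeR adjusted p = 0.123).

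Minus-strand members filled the low end. MRPS34 had 6.13, 6.25 and 3.85 CPM in sgControl footprints and 186.4, 217.9 and 166.6 CPM in mRNA, a log2 value of -4.54 ± 0.56 (SE, edgeR adjusted p = 1.98e-06). MRPL28 (-3.93), MRPL24 (-3.67), MRPS18A (-3.52), MRPL27 (-3.21) and MRPL11 (-3.19) were similarly low, as were MRPL10 (-4.07) and MRPL23 (-3.78), whose strand is not listed. The low plus-strand members in sgDAMP included MRPS17 (-3.29) and MRPL12 (-3.14), the stalk protein. MRPL51 and MRPL55, both minus-strand genes, were among the highest members in Scramble, whereas MRPL55 was at -3.16 in sgControl. Scramble libraries differ from the others in depth, in how many reads fell on no gene and, for footprints, in the share on coding genes. Condition and library set can therefore not be told apart.

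**Figure D4:**
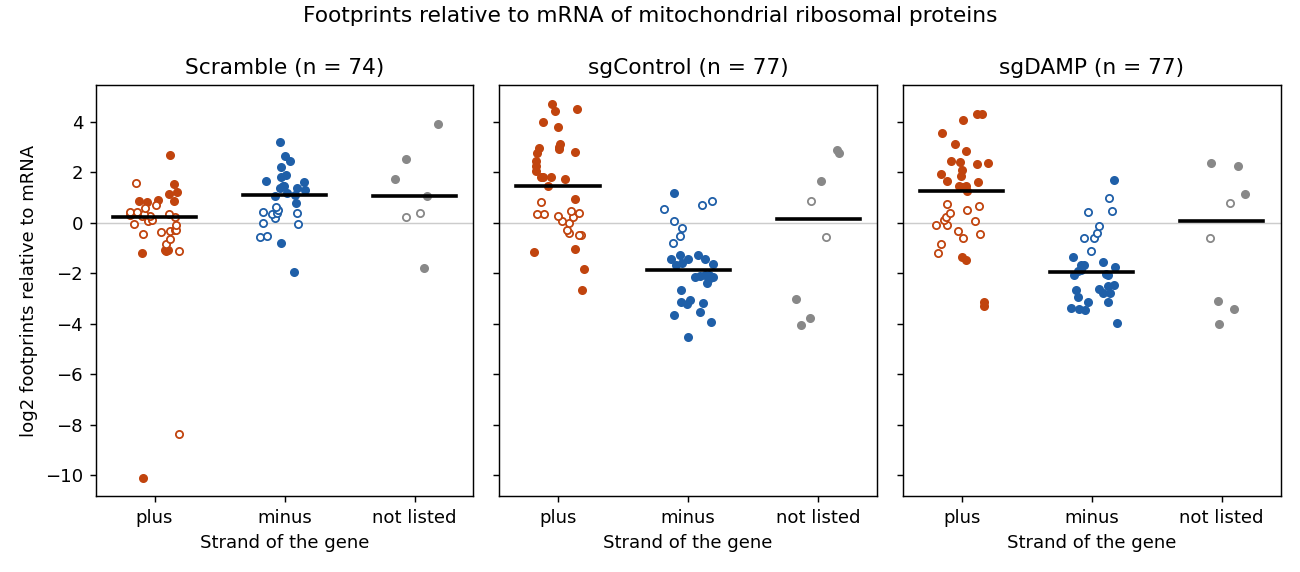
Fitted log2 of footprints relative to mRNA (vertical axis) for members on the plus strand (orange), on the minus strand (blue) and with no listed strand (grey), in Scramble, sgControl and sgDAMP cells; each point is a gene, filled where it passed an adjusted p of 0.05, and the bar is the median. Plus-strand medians are 0.22, 1.47 and 1.26 and minus-strand medians 1.09, -1.86 and -1.97, and the 2 lowest Scramble points are MRPL30 and MRPS17, which had 0 footprints, so that their fitted values measure nothing.

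5 proteins of the mitochondrial ribosome carry no MRP symbol: DAP3, AURKAIP1, PTCD3, CHCHD1 and GADD45GIP1. None passed the test between sgControl and sgDAMP in mRNA (edgeR, median 0.04). In footprints 1 was higher in sgDAMP: GADD45GIP1, on the minus strand, had 153 summed footprints in sgControl and 250 in sgDAMP (ratio 1.58, counting interval 1.28 to 1.94). DAP3, a plus-strand GTP-binding protein of the small subunit, had a ratio of 0.99. In Scramble footprints relative to mRNA, CHCHD1 (1.42) and AURKAIP1 (0.84) were higher and DAP3 (-1.27) lower.

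Of 14 mitochondrial translation factors, 13 were tested in mRNA and 0 passed, with a median of 0.25. In footprints 3 were higher in sgDAMP and 1 lower of 14 (15.3% and 12.6% of all genes). The higher ones were 3 of the 7 on the minus strand, where 22.5% of coding genes were higher: MTIF2, the initiation factor (155 and 295 summed footprints, ratio 1.84, 1.51 to 2.24), MTRF1L, a release factor (22 and 52, ratio 2.28, 1.36 to 3.94), and MTRF1, which had 1 footprint in sgControl and 13 in sgDAMP. TSFM, the exchange factor of TUFM, was lower on the plus strand (232 and 140, ratio 0.582, 0.468 to 0.721). The elongation factors GFM1 and TUFM had ratios of 0.974 and 1.30, inside the threshold. Of 22 assembly factors tested, 0 passed in mRNA (median 0.13), and 2 were higher in footprints (15.3% of all genes were), both among the 5 on the minus strand: TFB1M, a ribosomal RNA methyltransferase (25 and 68 footprints, ratio 2.62, 1.64 to 4.33), and RPUSD4 (58 and 91, ratio 1.51, 1.08 to 2.14). Of 15 genes of mitochondrial DNA expression, 0 passed in mRNA, and 1 was higher and 1 lower of 15 in footprints, both among the 10 on the minus strand (22.5% and 8.26% of coding genes).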

How the data were processed

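The deposited values are whole-number counts of reads per gene in 18 libraries. Per the submitters' processing notes the tools of the authors were edgeR, HTSeq 0.11.2, HISAT2 2.1.0, SAMtools 1.10 and Trimmomatic 0.30, and the build was GRCh38. Neither the annotation release nor how strand entered the counting is given in the sources used here. The members, the gene lists and the tests were chosen with earlier results of these data known. From the counts, genes were filtered with filterByExpr (minimum count 10), scaled by TMM, edgeR's trimmed mean (over both assays together for footprints against mRNA within a condition, within each assay for the interaction) and tested by quasi-likelihood in edgeR 4.0.16 (R 4.3.3) (Benjamini-Hochberg over all genes tested, adjusted p under 0.05). Each SE of an edgeR fit was worked back from the test, as the absolute log2 value divided by the square root of the quasi-likelihood F statistic. DESeq2 1.42.0 was an alternative. Scripts were tested on simulated data. Reads assigned to no gene, left out of library sizes, were 54.0% to 54.3% of a Scramble mRNA library, 22.2% to 24.2% of another mRNA library, 95.7% to 95.8% of a Scramble footprint library and 65.8% to 70.0% of another footprint library. Strand came from the RefSeq promoter table (GRCh38.p14) by symbol, and the strand imbalance was noticed after values were seen, as were the fits on 1 strand. Transcript and protein lengths were not used here, so levels are compared between libraries and not between genes. Named genes were, in each comparison, up to 8 called members at each end, otherwise the 4 most extreme, and in other lists up to 4 called genes. Genes outside that rule (MRPS7, MRPS12, MRPS35 and the MRPS18 relatives in footprints, DAP3, GFM1 and TUFM among them) were chosen after their values were seen. Of the members, 42 have pseudogenes and 18 overlap the span of another coding gene, and their counts are less certain. Same-numbered libraries of different groups showed no pairing (correlations of deviations from -0.43 to 0.36).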

Additional observations from a re-analysis of the deposited data

Results flagged for a closer look

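Footprints were counted on pseudogenes of members, and no member value includes them. Over 79 pseudogenes the sum was 1839 footprints in sgControl and 1736 in sgDAMP, against 18 in Scramble footprints and 18 to 36 counts in the mRNA of each condition. Relative to the footprints on the members themselves, which were far fewer in Scramble (3714, against 115910 in sgControl and 118664 in sgDAMP), the pseudogene sum came to 0.485% in Scramble, 1.59% in sgControl and 1.46% in sgDAMP. Both sums were listed because these counts enter no member value. Each sum exceeds the Scramble level on either measure. The pseudogenes stayed among all genes counted, so those that passed a filter entered the scaling and the values over all genes. 11 pseudogenes had at least 30 footprints over both conditions: 6 belong to minus-strand members, 4 to plus-strand members and 1 to a member with no listed strand. MRPL36P1 had 345 footprints in sgControl and 340 in sgDAMP, more than MRPL36 itself (181 and 197). MRPS10P1 had 257 and 297, against 106 and 184 for MRPS10. MRPL2P1 had 228 and 340, against 21 and 35 for MRPL2. MRPL32P2 had 265 and 132, far fewer than MRPL32 (2563 and 2421). MRPS33P3 had 159 and 153, against 213 and 238 for MRPS33. All 5 were at 0 in Scramble footprints, at that lower depth. The cause was not tested.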

How the results depend on the processing

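Between sgControl and sgDAMP, 0 members were called in mRNA and in the interaction under every alternative run, and the replicate block changed no call there. DSP-AS1 mRNA went from -0.07 to 0.065 with total-count and 0.030 with upper-quartile scaling. The interaction's member median relative to all genes (-0.18) ran from -0.37 to 0.049 over single libraries left out. Non-overlapping members in mRNA (1 higher, 0 lower) came to 22 and 0 without sgDAMP replicate 1 and 2 and 4 without replicate 2.

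In the footprint ratio (7 higher, 1 lower), total-count scaling gave 14 and 0, a lower fold threshold gave 13 and 8, a threshold of 2 gave 1 and 0, 6 libraries as replicates in edgeR gave 22 and 16 with and without a replicate block, plus-strand genes alone 0 and 0 and minus-strand genes alone 2 and 2. Over all genes, total-count scaling gave 4073 and 1402, the lower threshold 3636 and 3426, and the threshold of 2 gave 1712 and 1340. The 6 libraries in edgeR gave 3459 and 3498 without a replicate block, plus-strand genes alone 636 and 526 and minus-strand genes alone 744 and 630. Leaving out single libraries gave 6 to 8 members higher and 0 to 3 lower, beside 2328 to 2427 and 1954 to 2018 of all genes.

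In Scramble (29 higher, 8 lower, median excess over all genes 1.08), total-count scaling gave 1 and 66 and turned MRPL16 to -0.95, MRPS14 to -0.66, MRPL55 to -0.37, MRPL21 to -0.29, MRPL51 to -0.20 and MRPL33 to -0.20. At least 10 counts in every library left 16 members, with 5 higher and 4 lower and an excess of 0.18. No filter gave an excess of 1.52, coding genes alone 0.82, plus-strand genes alone 10 and 5, and the replicate block 5 lower. Leaving out single libraries gave 4 to 9 lower (4 without footprint replicate 1, 5 without mRNA replicate 3) and an excess of 0.94 to 1.39. Over the genes fitted, total-count scaling gave 481 higher and 13049 lower, plus-strand genes alone 752 and 1522, and the replicate block 2814 lower. Leaving out single libraries gave 2824 to 4009 genes lower (2824 without footprint replicate 1, 3058 without mRNA replicate 3).

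In sgControl the excess (-0.41) was 0.28 with no filter, -0.19 with at least 10 counts in every library, -0.64 with footprint libraries as replicates, -0.55 with the replicate block added and 0.075 over plus-strand genes alone, where 12 were higher and 11 lower. Leaving out single libraries gave -0.61 to -0.17 and 20 to 33 lower (20 without mRNA replicate 2). In sgDAMP the excess (-0.51) was 0.076 with no filter and -0.00740 over plus-strand genes alone. Leaving out single libraries gave -0.82 to -0.36 and 15 to 25 higher (15 without mRNA replicate 3). The causes were not tested, except that fits on 1 strand hold fewer genes. Depth limits Scramble footprints most. A summed sample with no replicate is assumed to vary like the mRNA libraries.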

Other observations

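The groups that mitochondrial ribosomes serve and mirror gave the following values. In Scramble footprints relative to mRNA, 58 of 73 nuclear-encoded respiratory chain genes were higher and 4 lower (edgeR), with a median log2 of 1.39, above the member median of 0.40. By strand, 22 were higher and 4 lower of 31 on the plus strand (median 1.28), and 26 and 0 of 29 on the minus strand (1.80). Of 84 cytosolic ribosomal proteins, 22 were higher and 41 lower, with a median of -0.79, and the strands differed in sign: 6 were higher and 25 lower of 41 on the plus strand (median -1.18), and 12 and 9 of 26 on the minus strand (0.24). All genes gave 17.1% higher and 27.4% lower. The 13 protein-coding genes of the mitochondrial genome, whose mRNAs are read inside mitochondria, had 6 higher and 2 lower and a median of 0.21. Between sgControl and sgDAMP none of these lists held a called gene in mRNA, and their medians were 0.08, 0.16 and -0.10. In footprints, where 15.3% of all genes were higher in sgDAMP and 12.6% lower, 6 respiratory chain genes were higher and 1 lower of 73: 0 and 1 of 32 on the plus strand (8.59% and 10.4% of coding genes) and 4 and 0 of 28 on the minus strand (22.5% and 8.26%). Of 87 cytosolic ribosomal proteins, 7 were higher and 3 lower, made up of 2 and 1 of 42 on the plus strand, 5 and 2 of 27 on the minus strand and none of those with no listed strand. Of the 13 mitochondrial genes, whose strand is not listed, 1 was higher and 0 lower.

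As a description across genes, which are not independent, the footprint to mRNA log2 values of Scramble and sgControl had a Pearson r of 0.09 over 35 plus-strand members and 0.46 over 30 minus-strand members. The points share depth and gene length.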
